A study of Homo sapiens with 10 samples.

Results

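The genes described here are 44 members of the lysosomal system: membrane proteins, hydrolases, cathepsins and the proteins that control their transcription and ion balance. They were chosen by name, and all 44 were found among the 20591 genes of the deposited table, of which 16800 carry a symbol. Bulk RNA was sequenced from 4 pure human blood cancer lines and from 6 in vitro pools of them. HL60 derives from a promyelocytic leukaemia, K562 from chronic myeloid leukaemia with erythroid features, SUDHL4 from a germinal-centre B cell lymphoma and THP1 from a monocytic leukaemia. Every library carried the label WT, received no treatment and was taken at day 0. Mixing ratios are absent from the labels, which also name 2 library kits, one for total RNA and one for mRNA, without saying which served which library, so kit and line cannot be told apart. Each pure line and each mixture was sequenced once, so no difference below has a replicate check and no test between libraries was possible.

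The lysosome is the acidic compartment in which cells break down proteins, sugars and lipids. Its enzymes are made in the endoplasmic reticulum, tagged with mannose 6-phosphate, carried to the compartment by sorting receptors and activated by the acid that a proton pump supplies. TFEB, TFE3 and MITF are related transcription factors that bind a palindromic promoter site common among lysosomal genes, and phagocytes of the monocyte lineage are known for a large lysosomal system.

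Values below are normalised CPM, that is reads per 1000000 with the authors' own rescaling between libraries. The pure libraries held 27166921 to 34571443 reads and the mixtures 24985570 to 36607612. The ranges in brackets after folds are 95% counting intervals, which cover counting error only. Folds were taken from rescaled reads, without the constant that the deposited values add to each read number above 0. Where the lower line had few reads, such a fold exceeds the ratio of the printed values. The lines carried their own markers: 5 of 5 marker genes of K562, 5 of 5 of SUDHL4 and 5 of 5 of THP1 were enriched in the line they mark. In HL60 3 of 4 were, while PRTN3, a granule protease, stood at 739.8 in HL60 and 1489 in THP1. The markers were chosen with earlier results of these data known, so these counts are no independent check of the lines. A gene counts as tested when it reached 5 normalised CPM in at least 1 pure line. This held for 38 of the 44 members and for 11717 genes in all.

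The promoters of the members were searched first for the letters that TFEB and its relatives are known to bind. RefSeq promoter sequences (GRCh38.p14, 250 bases before to 50 after each start site) were matched by symbol for 35 of the 44 members. The E-box CACGTG, a palindrome that reads the same on both strands, occurred in the promoters of 11 of the 35 (31.4%), against 12.9% of 9048 genes tested with a promoter and 8.77% of all 27305 genes with one. The longer palindrome TCACGTGA, which contains CACGTG and so overlaps with it, occurred in 6 of the 35 (17.1%), against 2.38% of the genes tested and 1.18% of all genes. The 6 were CLN3, CTSA, GAA, LAMP1, MCOLN1 and PLD3, which encode a membrane protein of Batten disease, a protective carboxypeptidase, the acid alpha-glucosidase, the main membrane glycoprotein, a calcium channel and a phospholipase D family exonuclease. Sites of 5 of these members are shown 5′ to 3′ with the TCACGTGA letters in capitals, to show where the searched letters lie and what surrounds them. Where the stretch around a member's sites reached an annotated exon, 30 bases are shown for each site.
CTSA chr20:45891298-45891327 (plus strand): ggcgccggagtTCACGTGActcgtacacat
GAA chr17:80101493-80101522 (plus strand): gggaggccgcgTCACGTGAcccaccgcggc
GAA chr17:80101538-80101567 (plus strand): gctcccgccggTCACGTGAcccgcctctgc
LAMP1 chr13:113297189-113297238 (plus strand): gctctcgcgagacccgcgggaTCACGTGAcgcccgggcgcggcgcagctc
MCOLN1 chr19:7522561-7522623 (plus strand): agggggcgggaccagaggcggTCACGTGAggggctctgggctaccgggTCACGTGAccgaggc
PLD3 chr19:40348503-40348532 (plus strand): ggccataaccaTCACGTGAccgcccaccga
PLD3 chr19:40348548-40348577 (plus strand): agtcgtaaccgTCACGTGAccgcccaccgt
GAA, MCOLN1 and PLD3 each hold the palindrome at a pair of places before the start site, and LAMP1 holds a further one across it that is not shown. A match describes the letters of the window and does not show that a factor binds there. The site was searched because it is known from lysosomal promoters, so its higher share in a lysosomal list is no independent result. Some genes have several promoters. Counted per promoter, TCACGTGA occurred in 7 of 57 of the members (12.3%), against 1.73% of those of the genes tested.

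The lysosomal genes together weighed most in THP1. They took 1.21% of all reads in THP1 (exact binomial interval 1.20 to 1.21%), against 0.299% in HL60, 0.336% in K562 and 0.281% in SUDHL4. One gene, PPT1, made up 58.4% of the members' reads in THP1 and 6.13 to 9.10% in the other lines. Without PPT1 the share in THP1 was 0.502%, against 0.272% in HL60, 0.309% in K562 and 0.264% in SUDHL4. The remaining 43 members therefore still took the most reads in THP1, and the intervals of these shares did not overlap that of THP1. In mixtures 1 to 6 the members took 0.572, 0.509, 0.648, 0.584, 0.667 and 0.592% of the reads, all between the THP1 share and the shares of the other lines. In a mixture, fewer cells of a line and less RNA per cell cannot be told apart.

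**Figure D1:**
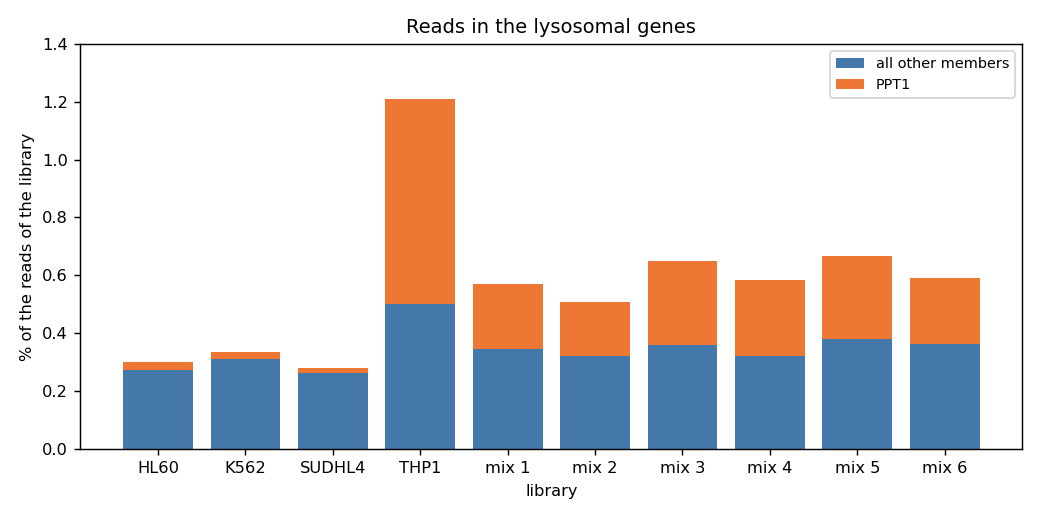
Share of all reads of each library (y axis, percent) that fell on the 44 lysosomal genes, for the 4 pure lines and mixtures 1 to 6 (x axis, 1 library each). Orange is PPT1 and blue all other members; THP1 reached 1.21%, of which the blue portion is 0.502%.

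Across single genes, 17 of 38 members tested were highest in THP1 (44.7%), where 20.7% of all genes tested were. Another 9 were highest in HL60 (24.8% of all genes), 9 in K562 (30.2%) and 3 in SUDHL4 (24.3%). The HL60 count was 6 when scaled by total reads and 5 when scaled by reference genes, and the SUDHL4 count was 5 with no minimum level. At the other end, 15 of 38 were lowest in SUDHL4 (25.8% of all genes), 9 in HL60 (15.9%), 9 in K562 (21.6%) and 5 in THP1 (29.8%). On the log2(value + 1) scale, the median member in THP1 exceeded the average over the other 3 lines by 1.12, while the median over all genes tested lay at −0.16. In HL60, K562 and SUDHL4 the members' medians were 0.00, −0.17 and −0.33, against 0.08, 0.07 and −0.10 over all genes. The sign of the small HL60 median changed with the scaling. The distance of the members' median from that of all genes in THP1 was 1.27 with the deposited scaling and 1.28, 1.27 and 1.27 with total reads, reference genes and median ratios.

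Fewer members passed a rule of size. Enriched in a line means 5 or more normalised CPM there and a log2(value + 1) that exceeds every one of the other 3 lines by 2 or more. Low means the reverse, 2 or more under all the others where these all reach 5, and shared means that a pair of lines both clear the remaining pair by that margin. GAA, PPT1 and TPP1 were enriched in THP1 (3 of 38 members, 7.89%, against 5.03% of all genes tested), and MITF in K562 (1 of 38, 2.63%, against 4.6%). No member was enriched in HL60 (0.973% of all genes) or SUDHL4 (3.56%). Low calls fell on CTSH and CTSZ in HL60 (2 of 38, 5.26%, against 0.862%), on CTSS and LIPA in K562 (2 of 38, against 2.35%) and on CTSL and SCARB2 in SUDHL4 (2 of 38, against 2.65%). None fell on THP1, where 0.452% of all genes were low. CTSL, GRN and TFEB were shared by a pair (3 of 38, 7.89%, against 6.42%). In all, 12 of 38 members (31.6%) carried a call, against 24.7% of all genes tested. ARSA joined the members enriched in THP1, making 4, under each of 3 other scalings and with a pseudocount of 0.1. The range from the lowest to the highest pure line was 2.37 for the median member and 1.69 for the median of all genes tested, and 24 of 38 members had a range of 2 or more. GLA, GUSB, ASAH1, ACP2 and MCOLN1 had a range under 1. Counting intervals of the 2 highest lines overlapped only for GLB1, GUSB and MCOLN1, so for the other 35 members tested the choice of the highest line was not limited by read number. The highest line of 7 of the 38 (GLB1, GUSB, ARSB, LIPA, ACP2, CTSC and MCOLN1) changed under at least 1 of 3 other scalings.

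**Figure D2:**
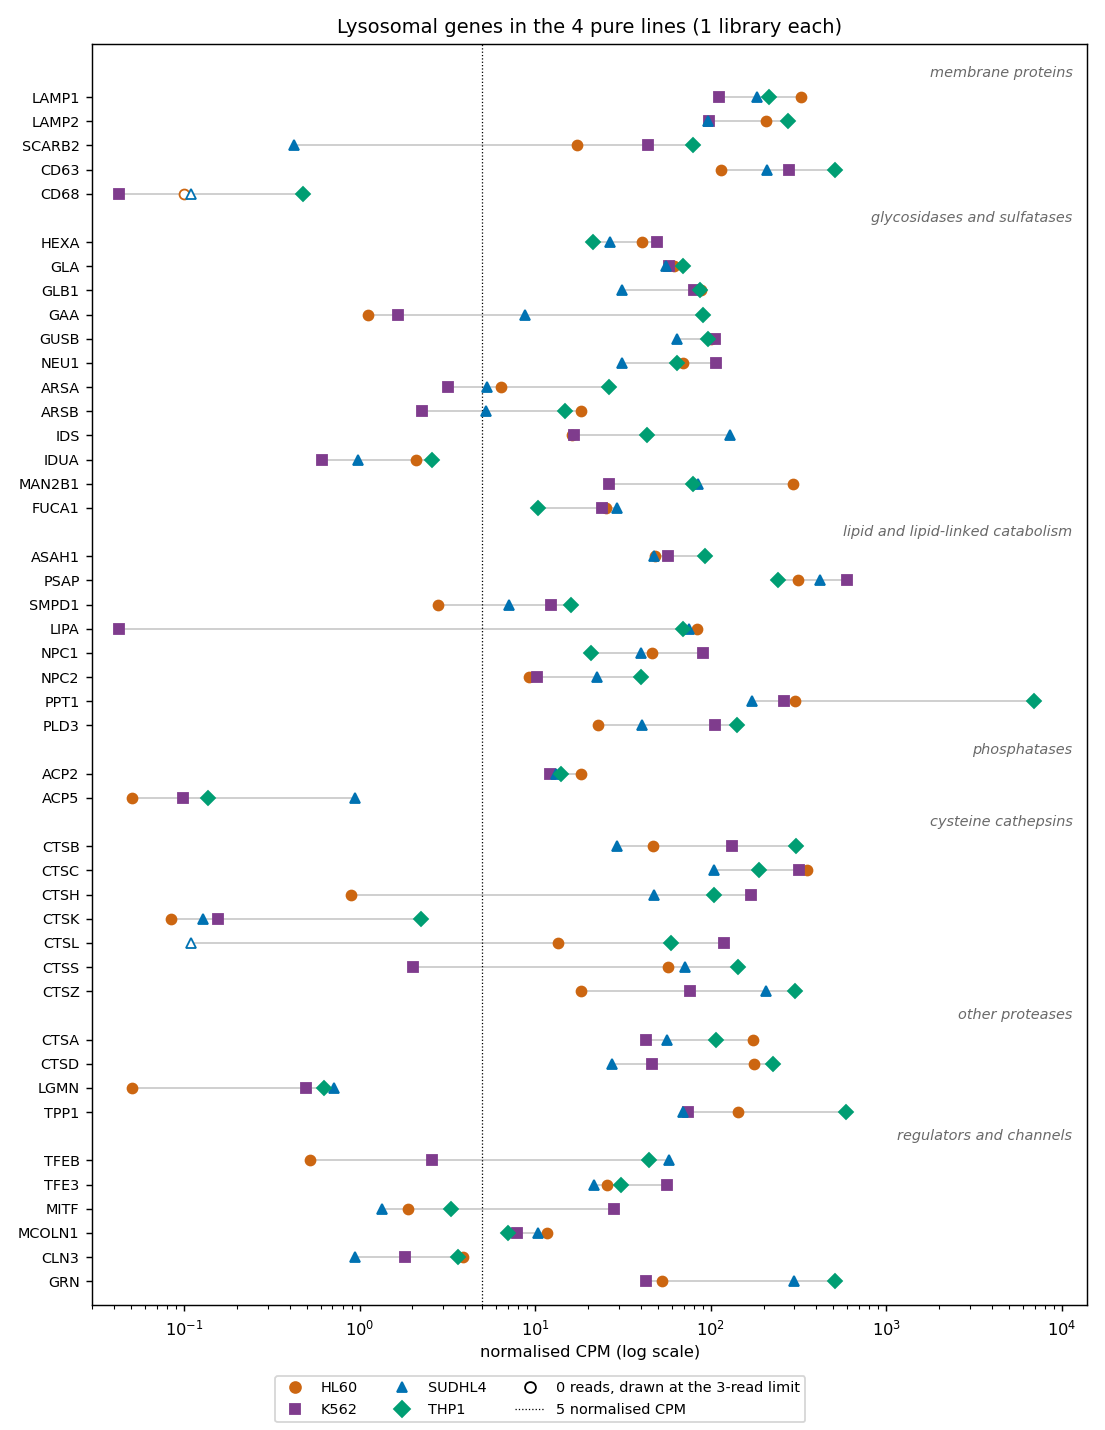
Level of each of the 44 members (x axis, normalised CPM, log scale) in the 4 pure lines, grouped by role; each point is 1 library, open symbols are 0 reads drawn at the limit of 3 reads, and the dotted line marks 5 normalised CPM. PPT1 in THP1 lies furthest right, at 6966, and CTSL, LIPA, CTSH and SCARB2 each have 1 line far to the left.

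PPT1 encodes palmitoyl-protein thioesterase, which removes fatty acids from proteins delivered to the lysosome and whose loss causes an infantile ceroid lipofuscinosis. It stood at 302 normalised CPM in HL60, 262 in K562, 172 in SUDHL4 and 6966 in THP1. In mixtures 1 to 6 it was 2269, 1993, 2628, 2678, 2827 and 2233, so every mixture lay far above the 3 lines other than THP1. The THP1 level was 23.1-fold (22.6 to 23.6) that of HL60, 26.6-fold (26.1 to 27.2) that of K562 and 40.6-fold (39.4 to 41.8) that of SUDHL4. Per kilobase of annotated exon, PPT1 was at 1369 normalised CPM in THP1, where the next member, the membrane protein gene CD63, was at 195. In the other lines PPT1 was at 33.8 to 59.4 per kilobase, below PSAP in each of them.

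PPT1 lies on chromosome 1 (40071461 to 40097727, minus strand, GRCh38), and the genes beside it showed the same tilt. Of the 17 other genes tested within 500 kb of its start, 15 were highest in THP1 and 11 were enriched there, with a median difference of 3.18 on the log2(value + 1) scale. Between 500 and 1000 kb, 7 of 7 were highest in THP1, 5 of them enriched, with a median of 3.10. From 1000 to 2000 kb, 2 of 7 were highest in THP1 and 0 were enriched, with a median of −0.11. The 2 were SCMH1 (difference 2.12) and HIVEP3 (3.59), the only genes tested there at higher coordinates than PPT1. This division by side was made after the values were seen. From 2000 to 5000 kb, 29 of 72 were highest in THP1 (40.3%) and 11 were enriched (15.3%), with a median of 0.08. Of these, 24 of 38 at higher coordinates were highest in THP1 and 9 enriched, against 5 and 2 of 34 at lower coordinates, a division made after the values were seen. Over all genes tested 20.7% were highest in THP1 and 5.03% enriched. CAP1, an actin-regulating gene on the opposite strand, stood at 519, 484, 512 and 11784 in HL60, K562, SUDHL4 and THP1, and its exons overlap 23.4% of the exon bases of PPT1. The kits are stranded per the labels, but no source used here gives the strand setting of the counting, so reads of the 2 genes may be mixed in the overlap. SMAP2, which lies 247 kb away and encodes a trafficking protein, stood at 130.3, 368, 241 and 1828 in the same order. The part of this regional tilt in the PPT1 level was not tested. The other members enriched in THP1 had fewer such neighbours: 3 of 10 genes tested within 500 kb of GAA and 6 of 11 near TPP1 were highest in THP1, with 2 and 1 enriched.

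**Figure D3:**
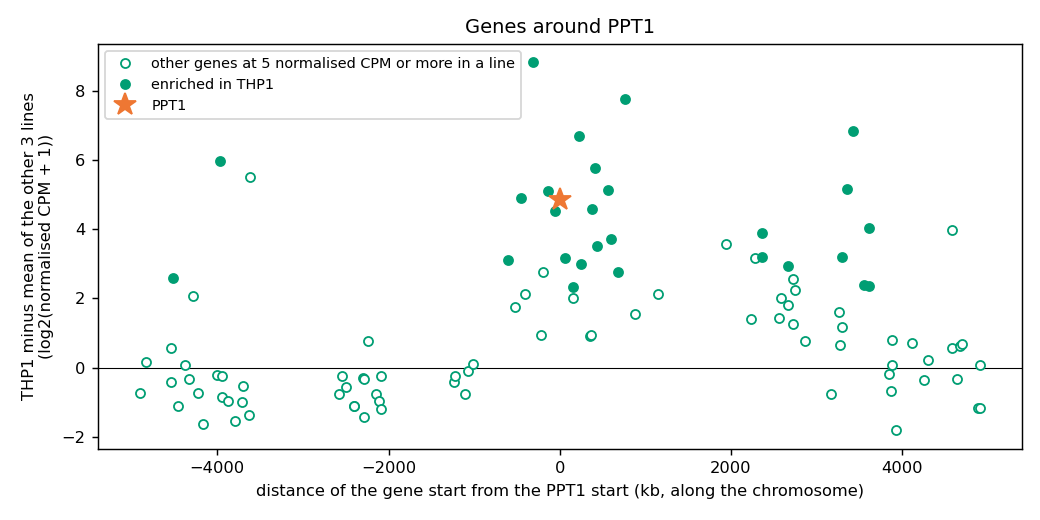
Difference between THP1 and the mean of the other 3 pure lines (y axis, log2(normalised CPM + 1)) for genes tested up to 5000 kb from PPT1, against the distance between start sites (x axis, kb). Filled points are enriched in THP1 and the star is PPT1. Genes within 1000 kb had medians of 3.18 (nearest 500 kb) and 3.10 (the next 500 kb). Those from 1000 to 2000 kb had one of −0.11, with SCMH1 (2.12) and HIVEP3 (3.59) at higher coordinates. Further filled points lie beyond 2000 kb, mostly at higher coordinates.

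Among the membrane proteins, SCARB2 was almost missing from SUDHL4 while LAMP1, LAMP2 and CD63 were present in all lines. SCARB2, also called LIMP2, is the receptor that carries glucocerebrosidase to the lysosome. It stood at 17.3 normalised CPM in HL60, 43.95 in K562, 0.422 in SUDHL4 and 79.3 in THP1, and the SUDHL4 value rests on 11 reads. HL60, the next lowest line, was 42.9-fold (23.8 to 86.5) above SUDHL4, and the mixtures held 34.2, 30.7, 45.03, 32.6, 45.3 and 39.1. CD63, a tetraspanin of late endosomes and lysosomes, stood at 114 normalised CPM in HL60, 278 in K562, 210.0 in SUDHL4 and 513 in THP1, and at 304, 316, 269, 336, 441 and 346 in mixtures 1 to 6. THP1 exceeded HL60 4.48-fold (4.32 to 4.65) for this gene. The main glycoproteins of the membrane split by line: LAMP1 was highest in HL60 (328) and lowest in K562 (111), whereas LAMP2 was highest in THP1 (274) and close to equal in K562 (97.7) and SUDHL4 (96.7). CD68, the macrophage scavenger-type glycoprotein, was listed at 0 reads in HL60 and SUDHL4, 1 read in K562 and 15 reads in THP1 (0.474). Other annotated genes overlap 85.8% of the CD68 exon bases, and the neighbouring translation factor gene EIF4A1 was also listed at only 0.381 to 0.973, so the low CD68 value is uncertain as a measure of the transcript.

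The 12 glycosidases and sulfatases remove sugars and sulfate groups from glycogen, glycolipids and glycosaminoglycans. Of these, 11 were tested and 1 carried a call (9.09%, against 24.7% of all genes tested). GAA, the acid alpha-glucosidase that digests glycogen and is deficient in Pompe disease, stood at 1.12 normalised CPM in HL60, 1.65 in K562, 8.72 in SUDHL4 and 90.5 in THP1. THP1 was 10.4-fold (9.11 to 11.9) above SUDHL4, the next line, and the mixtures held 28.5, 24.8, 25.7, 27.1, 30.3 and 25.6, all between these lines. MAN2B1, the acid alpha-mannosidase, showed another order, at 296 normalised CPM in HL60, 26.2 in K562, 84.9 in SUDHL4 and 79.00 in THP1. HL60 was 3.48-fold (3.33 to 3.65) above SUDHL4, short of the margin for a call, and the mixtures held 125, 154, 92.01, 86.7, 55.04 and 63.6. Mixture 2, whose estimated HL60 share was the largest, held the most MAN2B1. IDS, the sulfatase missing in Hunter syndrome, was highest in SUDHL4 (129.6) against 43.3 in THP1, 16.7 in K562 and 16.2 in HL60. ARSA, which removes sulfate from sulfatide, stood at 26.5 in THP1 and 6.35 in HL60, a margin of 1.90 that falls just under the threshold of 2 and rose to between 2.04 and 2.24 with the other scalings and the smaller pseudocount. ARSB was highest in HL60 (18.3) and lowest in K562 (2.27).

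The remaining enzymes of this group carried no call. GLA, deficient in Fabry disease, ranged from 55.5 to 69.7 over the lines and GUSB, a beta-glucuronidase, from 64.1 to 105. HEXA, a beta-hexosaminidase subunit, ranged from 21.3 to 49.3 with K562 highest, and NEU1, a sialidase, from 31.1 to 107, again with K562 highest. GLB1, the beta-galactosidase, did not differ beyond counting error between HL60 (87.8) and THP1 (87.3) and was lowest in SUDHL4 (31.4). FUCA1, the fucosidase, was lowest in THP1 (10.3) and 24.02 to 29.4 elsewhere. IDUA, the iduronidase, stayed under 5 in every line, with THP1 at 2.58 and K562 at 0.607. GUSB and IDS have near-identical pseudogene copies, so their counts are uncertain where reads could be split.

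Among the genes of lipid breakdown, K562 nearly lacked LIPA. LIPA, the acid lipase that frees cholesterol from its esters, had a single read in K562. It stood at 83.2 normalised CPM in HL60, 0.0424 in K562, 75.04 in SUDHL4 and 69.4 in THP1, so the 3 other lines lay in a narrow range and K562 was nearly empty. By reads, without the constant added in the deposited values, the ratio of THP1, the lowest of the 3, to K562 was 2456-fold (440.4 to 97068). The interval is wide because of that single read, and the levels printed above give a smaller ratio. The mixtures held 58.8, 55.5, 47.2, 82.8, 34.7 and 31.9, lowest in mixtures 5 and 6, whose estimated K562 shares were the largest. NPC1, which exports the cholesterol that LIPA releases, had the opposite tilt, at 90.7 in K562, with HL60 at 46.6, SUDHL4 at 40.3 and THP1 at 20.7. Its partner NPC2, the soluble carrier of cholesterol, was highest in THP1 (40.1) and lowest in HL60 (9.23). THP1 was thus the lowest line for NPC1 and the highest for NPC2.

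None of the sphingolipid genes carried a call. PSAP, the precursor of the saposins that present lipids to their enzymes, was highest in K562 (599) and lowest in THP1 (243), the only one of the 8 lipid genes besides NPC1 to be lowest there. SMPD1, the acid sphingomyelinase, ran from 2.80 in HL60 to 16.1 in THP1, and ASAH1, the acid ceramidase, from 47.4 in SUDHL4 to 93.03 in THP1. PLD3 stood at 142 in THP1, 105 in K562, 40.8 in SUDHL4 and 22.9 in HL60. Altogether 5 of the 8 lipid genes were highest in THP1, where 20.7% of all genes tested were. The phosphatase ACP2 hardly varied, at 18.2 normalised CPM in HL60, 12.2 in K562, 13.1 in SUDHL4 and 14.1 in THP1 and at 16.1, 16.7, 13.2, 15.8, 15.4 and 14.3 in the mixtures. ACP5, the tartrate-resistant phosphatase of osteoclasts and macrophages, stayed under 1 normalised CPM everywhere.

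The cysteine cathepsins are papain-like proteases that degrade proteins in the lysosome. Among the 6 members tested, a different one was close to missing in each of HL60, K562 and SUDHL4, and none was in THP1. The pattern is that of the members only. CTSO and CTSV, which are not members, stood at 0.218 or less in HL60, K562 and SUDHL4 and at 17.3 and 7.99 in THP1. Of the 6 members tested, 4 carried a call (66.7%, against 24.7% of all genes tested). Summed levels of the 7 members of this group were 489 in HL60, 821 in K562, 459 in SUDHL4 and 1105 in THP1. CTSH, an aminopeptidase, stood at 0.888 normalised CPM in HL60, 171 in K562, 47.4 in SUDHL4 and 104 in THP1. The HL60 value rests on 26 reads, and SUDHL4, the next lowest, was 54.4-fold (36.9 to 83.5) above it. The mixtures held 74.9, 72.4, 89.7, 62.5, 151 and 133, highest in mixtures 5 and 6.

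CTSS, which trims the invariant chain during class II antigen presentation, was the one close to missing in K562, at 57.2 normalised CPM in HL60, 2.02 in K562, 71.5 in SUDHL4 and 143 in THP1. HL60, the next lowest, was 28.5-fold (22.5 to 36.7) above K562, which had 71 reads. The mixtures held 75.3, 55.1, 69.7, 93.3, 58.8 and 52.2, highest in mixture 4, whose estimated K562 share was close to 0. CTSL, an endopeptidase, had 0 reads in SUDHL4, which allows up to 0.110 normalised CPM at the limit of 3 reads. It stood at 13.6 in HL60, 119 in K562 and 59.6 in THP1, so K562 was at least 1080-fold and HL60 at least 123-fold higher than SUDHL4. The mixtures held 43.9, 49.5, 60.4, 23.1, 84.2 and 82.6, lowest in mixture 4, where SUDHL4 had its largest estimated share. CTSL also met the rule for a pair, K562 with THP1. All 3 genes tested within 500 kb of CTSL were lowest in SUDHL4 too, with a median of −1.81, where 25.8% of all genes tested were lowest. None of these 3 neighbours met the rule for low. Near the other members with a low call, a smaller portion of the neighbours tested was lowest in the same line. In HL60 the counts were 0 of 4 for CTSH and 2 of 7 for CTSZ, where 15.9% of all genes tested were lowest. In K562 they were 5 of 24 for CTSS and 1 of 4 for LIPA, against 21.6%. In SUDHL4 the count was 1 of 3 for SCARB2, against 25.8%. CTSL has pseudogene relatives, and reads from them could not be told apart here.

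CTSZ, a carboxypeptidase, was low in HL60 by a smaller margin, at 18.2 normalised CPM in HL60, 76.3 in K562, 206 in SUDHL4 and 303 in THP1, and at 152, 129, 124, 212, 184 and 169 in the mixtures. K562 was 4.20-fold (3.83 to 4.62) above HL60. CTSC, which activates the serine proteases of granules by removing a dipeptide, was present throughout, at 353 normalised CPM in HL60, 320.5 in K562, 105 in SUDHL4 and 188 in THP1 and at 239.7, 298, 261, 178, 243 and 239 in the mixtures. HL60 and K562 exceeded SUDHL4, but no line stood apart by the margin. CTSB stood at 46.7 normalised CPM in HL60, 132 in K562, 29.3 in SUDHL4 and 306 in THP1, and THP1 was 10.5-fold (9.72 to 11.2) above SUDHL4. CTSK, the collagen-degrading cathepsin of osteoclasts, stayed under 5 normalised CPM, with 73 reads in THP1 (2.25) and 2 to 5 reads in the other lines.

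**Figure D4:**
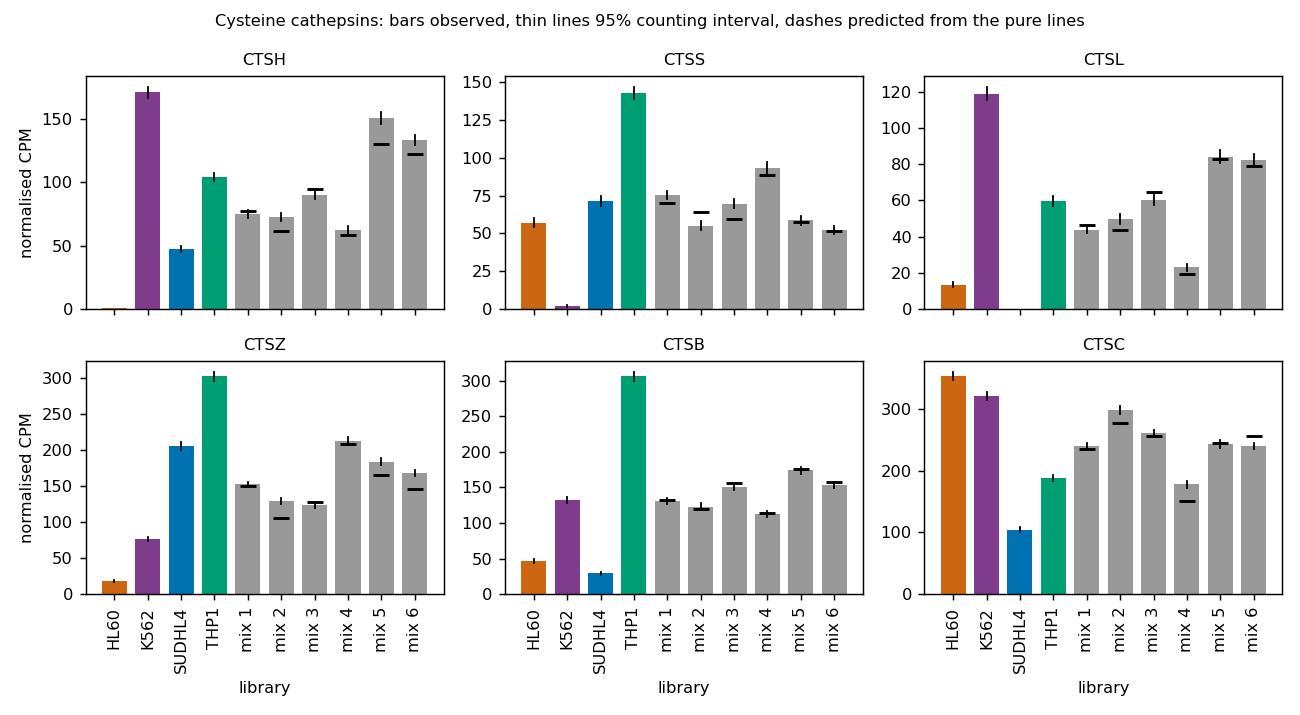
Normalised CPM (y axis) of 6 cysteine cathepsins in the 4 pure lines (coloured) and mixtures 1 to 6 (grey); thin lines are 95% counting intervals and dashes the level predicted for each mixture. CTSH is close to 0 in HL60 (0.888), CTSS in K562 (2.02) and CTSL in SUDHL4 (0), while every mixture lies between the lowest and highest pure line.

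Cystatins inhibit these cathepsins, and all 4 measured carried a call, against 24.7% of all genes tested. CST7, the leukocystatin, stood at 264 in HL60 and 6.28 in THP1, with 0 reads in K562 and SUDHL4. CST3, the secreted cystatin C, stood at 181 in THP1, 33.6 in K562 and 1.49 in HL60, with 0 reads in SUDHL4. CSTA, a cytosolic inhibitor, was shared by THP1 (111) and HL60 (73.9), whereas CSTB was low in HL60 (17.2) and 85.7 to 122 in the other lines. SUDHL4, without CTSL reads, thus also had 0 reads of CST7 and CST3 and 0.789 of CSTA.

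Among the other proteases, TPP1, a tripeptidyl peptidase deficient in late infantile ceroid lipofuscinosis, was enriched in THP1, at 143 normalised CPM in HL60, 73.8 in K562, 69.97 in SUDHL4 and 588 in THP1. THP1 was 4.11-fold (3.98 to 4.25) above HL60, a margin of 2.03 that is just past the threshold. In mixtures 1 to 6 it was 204, 126, 225, 174, 170.2 and 171, and mixture 2 lay below pure HL60. CTSD, the aspartic protease, was high in THP1 (227) and HL60 (176) and lower in K562 (46.5) and SUDHL4 (27.3). CTSA was highest in HL60 (174), followed by THP1 (107), SUDHL4 (56.2) and K562 (42.6). LGMN, the asparaginyl endopeptidase, stayed under 1 in every line. Other genes annotated in GENCODE 29 overlap 52.7% of the exon bases of CTSD, 28.5% of those of CTSA and 14.4% of those of TPP1. Those on the same strand as CTSD and TPP1, AC068580.4 and AC091564.7, have no row in the deposited table. Whether they took part in the counting is not known.

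TFEB, MITF and TFE3, the transcription factors on the list, differed in their spread over the lines. TFEB was shared by SUDHL4 and THP1, at 0.520 normalised CPM in HL60, 2.58 in K562, 57.7 in SUDHL4 and 44.4 in THP1, and at 30.97, 22.4, 11.6, 43.6, 26.98 and 23.3 in the mixtures. SUDHL4 was 22.5-fold (18.2 to 28.05) and THP1 17.3-fold (13.97 to 21.6) above K562, and HL60 had only 15 reads. MITF, the melanocyte and osteoclast member of the family, was enriched in K562, at 1.89 normalised CPM in HL60, 28.2 in K562, 1.34 in SUDHL4 and 3.32 in THP1. K562 was 8.53-fold (6.99 to 10.5) above THP1, and the mixtures held 5.74, 4.65, 10.7, 2.41, 11.2 and 13.2, highest in mixtures 6, 5 and 3. TFE3 was present in every line, at 25.8 normalised CPM in HL60, 56.7 in K562, 21.6 in SUDHL4 and 30.9 in THP1, and at 33.7, 32.6, 37.1, 25.3, 45.1 and 44.5 in the mixtures. Each line therefore had at least TFE3 above 20 normalised CPM, and HL60 had no other of the 3 above 2.

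GRN, whose product progranulin is carried to the lysosome and supports its enzymes, followed the same pair of lines as TFEB. It stood at 52.7 normalised CPM in HL60, 42.7 in K562, 299 in SUDHL4 and 512 in THP1, with SUDHL4 5.67-fold (5.37 to 5.99) above HL60, and the mixtures held 238, 189.9, 166, 299, 234 and 229. MCOLN1, the calcium channel of the lysosomal membrane, varied little, at 11.6 normalised CPM in HL60, 7.89 in K562, 10.3 in SUDHL4 and 6.98 in THP1 and at 9.75, 9.33, 7.10, 8.19, 8.79 and 9.19 in the mixtures, and the intervals of HL60 and SUDHL4 overlapped. CLN3 stayed under 5, at 3.87 in HL60, 1.82 in K562, 0.936 in SUDHL4 and 3.62 in THP1, and other annotated genes overlap 30.9% of its exon bases. Of the 6 members with TCACGTGA in the promoter shown or named above, CTSA and LAMP1 had their highest level in HL60, the line with the least TFEB (0.520), under all 4 scalings. MCOLN1 and CLN3 were also listed highest there, but MCOLN1 was 1.13-fold (0.960 to 1.32) SUDHL4 and CLN3 1.07-fold (0.820 to 1.39) THP1, so neither order was resolved by counting, and each changed under at least 1 other scaling. GAA and PLD3 had theirs in THP1, where TFEB was at 44.4. PLD3 was next highest in K562 (105), where TFEB was at 2.58, TFE3 at 56.7 and MITF at 28.2. GAA was next highest in SUDHL4 (8.72), where TFEB had its highest level (57.7). HL60 held TFE3 at 25.8. Over all genes tested, 24.8% were highest in HL60 and 20.7% in THP1. Any part of TFEB, TFE3 or MITF in the levels of these genes was not tested.

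Further lysosomal genes that are not members were counted from lists of the pathway. Of 26 other hydrolases 24 were tested, 15 were highest in THP1 and 5 were enriched there (20.7% and 5.03% of all genes). Among the 5 were CTSG, a serine protease of granules (1486 in THP1, 77.2 in HL60, 0 elsewhere), CPVL, CTSO and CTSV. GM2A, the activator of ganglioside breakdown, was enriched in SUDHL4 (358 against 17.4 to 64.7), PPT2 in K562 (26.3), and PLBD1 was shared by K562 and THP1. Of 17 V-ATPase subunits of the proton pump tested, none was enriched in a line, and 1 carried a call (5.88%, against 24.7% of all genes tested): ATP6V0E2, low in HL60 (0.553 against 18.4 to 49.3). The median range over the lines was 1.43 for these subunits and 1.69 for all genes tested, and ATP6V0A1, TCIRG1 and ATP6V0A2 had ranges of 3.51, 2.81 and 2.09 without a call. The ring subunit ATP6V0C was listed at 0 to 0.275 in every line although the pump needs it, so a value near 0 in this table is not by itself a silent gene.

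Of 9 genes for mannose 6-phosphate tagging and sorting, 2 carried a call (22.2%, where 24.7% of all genes tested did). SORT1, the sorting receptor sortilin, was enriched in K562 at 199 against 27.5 in THP1, 0.0503 in HL60 and 0.129 in SUDHL4, and IGF2R, the large mannose 6-phosphate receptor, was low in SUDHL4 (24.03 against 101 to 262). Of 15 other membrane proteins tested, 5 carried a call (33.3%). LAPTM4B had 0 reads in SUDHL4 and 124 to 399 elsewhere. LAPTM5, a blood cell protein of the same family, was low in K562 (48.2 against 891 to 2192). SLC11A1 and SLC17A5, carriers of metal ions and sialic acid, were enriched in THP1, and HGSNAT was shared by SUDHL4 and THP1. Of 17 genes for the nutrient control of TFEB and TFE3 tested, 3 carried a call (17.6%): TFEC, a further relative of TFEB, was enriched in THP1 (35.5), RRAGD was low in K562 (0.155) and FNIP2 in SUDHL4 (0.312). Of 18 autophagy genes, RUBCN was enriched in SUDHL4 (118) and MAP1LC3B was shared by K562 (191) and SUDHL4 (152), so 2 carried a call (11.1%).

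The mixtures address whether lysosomal levels add up from the pure lines, the question behind deconvolution. The share of each line was estimated from 100 genes per line that include no member and no gene of the other lists used here. Unlisted genes, also those near PPT1, were not left out. Each member was predicted as the sum of the pure levels weighted by the coefficients of this estimate. THP1 had estimated RNA shares of 28.9, 24.0, 35.1, 31.3, 34.3 and 27.6% in mixtures 1 to 6. HL60 reached its largest share in mixture 2 (48.5%), K562 in mixtures 5 and 6 (53.7 and 53.2%) and SUDHL4 in mixture 4 (58.3%), while mixture 3 had an estimate of 0 for SUDHL4 and mixture 4 one of 0.0237% for K562.

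No member was off its prediction by 1 or more on the log2(value + 1) scale in any mixture. Over all genes tested, 0.107, 1.24, 0.148, 0.23, 0.676 and 0.24% were in mixtures 1 to 6. At 0.5 or more, 3 of 38 members were off in mixture 2 (MITF, TFEB and TPP1, against 16.8% of all genes), 1 in mixture 5 (TPP1, against 11.2%) and 1 in mixture 6 (ARSB, against 4.98%). None was in mixtures 1, 3 and 4, against 1.56, 0.642 and 2.94% of all genes. At both margins the share of members off the weighted sum was below the share of all genes in every mixture, although a single member of 38 is 2.63%.

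TPP1 and PPT1, both led by THP1, departed from the sum in opposite directions. TPP1 was below its prediction in all 6 mixtures, by log2 differences of −0.18, −0.80, −0.13, −0.40, −0.52 and −0.33. In mixture 2 the level was 126 where 220.3 was predicted. PPT1 was above its prediction in all 6, by 0.10, 0.15, 0.14, 0.27, 0.18 and 0.12, with the largest gap in mixture 4 (2678 where 2228 was predicted). All 6 predictions use the same THP1 library, so the mixtures do not give independent readings of these gaps. MITF was lower than predicted in mixture 2 (4.65 against 7.31) and TFEB higher (22.4 against 14.7). ARSB in mixture 6 was at 11.6 against 7.12. Median differences of the members from prediction were 0.05, 0.09, −0.03, 0.04, 0.07 and 0.07 in mixtures 1 to 6, and their sign in mixtures 2, 3, 5 and 6 changed when the shares were estimated from unscaled gene values.

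**Figure D5:**
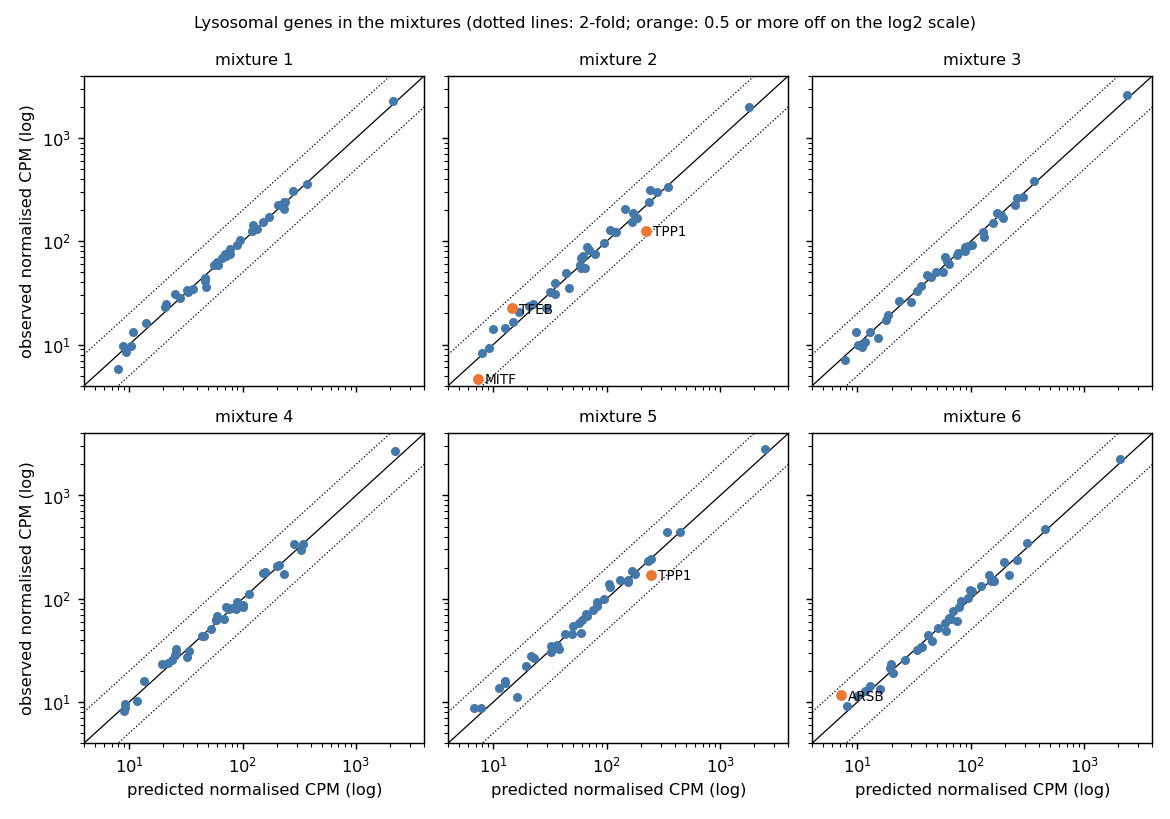
Observed against predicted level (both axes normalised CPM, log scale) of the members tested in each mixture; each point is a gene, the solid line is equality and the dotted lines are 2-fold. Points 0.5 or more off on the log2(value + 1) scale are orange and named: 3 in mixture 2, 1 in mixture 5 and 1 in mixture 6.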

How the data were processed

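Bulk RNA sequencing was analysed for 10 libraries, 1 for each of 4 pure lines and 6 mixtures. The authors deposited 1 table of signal values, close to counts per 1000000 reads (CPM) but rescaled between libraries by a step that no source used here gives. Per the submitters' processing notes, the tools were HISAT2, featureCounts and Cell Ranger ARC 2.0.0 and the build hg19. Each value above 0 was a whole number of reads plus 0.5, times a constant for its column (100% whole within 0.01), which gave back the reads. With 1 library a group, rules of size replaced tests. Gene positions and exon overlaps came from GENCODE 29 (GRCh38), matched by Ensembl ID.

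Mixture shares were estimated by non-negative least squares on 100 signature genes per line, set relative to the highest pure line for each gene, and the calls and shares were tested on simulated data. Python 3.11.15 with numpy 2.4.6, pandas 2.3.3, scipy 1.17.1 and matplotlib 3.10.9 was used. Poisson and Clopper-Pearson intervals were exact at 95%, and a count of 0 was given a limit of 3 reads. Alternatives changed the scaling, the pseudocount of 1, the minimum of 5, the margin, and the estimate of the shares.

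The members and all gene lists were chosen with earlier results of these data known. Values in every library are printed for members with a call, the highest member of each role group, and TFEB, TFE3, MITF and MCOLN1. From other lists the rule named up to 4 genes with the largest range over the lines. Other genes with a call, and CAP1, SMAP2, EIF4A1 and ATP6V0C, were named after their values were seen.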

Additional observations from a re-analysis of the deposited data

How the results depend on the processing

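The calls of the 12 members kept their side under 3 other scalings and a pseudocount of 0.1. Of 189 alternative values, 91 answering a comparison and 52 of single genes were classed as the same. This class allows limited changes and does not mean equal values. It holds, for instance, 21 members highest in THP1 with reference genes against 17 with the deposited scaling, and 6 highest in HL60 with total reads against 9. Another 4 (the ARSA margin in THP1) rose past the threshold, 35 moved and 7 reversed. Lowering the margin to 1 gave 1 member enriched in HL60 and 1 in SUDHL4, with 5 in THP1. Raising it to 3 gave 0 in K562. Reference-gene scaling left 5 members highest in HL60, and no minimum level gave 5 highest in SUDHL4. Medians for HL60, K562 and THP1 were −0.16, −0.10 and 1.17 with total reads, −0.23, −0.25 and 1.35 with reference genes, 0.082, −0.18 and 1.20 with a pseudocount of 0.1, and −0.11, −0.25 and 0.80 with no minimum. The SUDHL4 median was −0.29 with total reads and −0.25 with reference genes. Without the most abundant member of each line, 0.268% of the reads in HL60, 0.274% in K562, 0.239% in SUDHL4 and 0.502% in THP1 fell on the list. A margin of 0.5 put 3 members off in mixture 2, 1 in mixture 5 and 1 in mixture 6. Median differences from prediction in mixtures 1 to 6 were 0.045, 0.145, −0.068, 0.027, 0.033 and 0.063 with 50 signature genes per line and 0.068, −0.095, 0.053, 0.0074, −0.0019 and −0.0060 with unscaled values. With total reads they were 0.085, −0.040 and 0.031 in mixtures 2 to 4. The cause of the reversed signs was not tested. Low and shared calls under other scalings were added after seeing the data. No paired analysis was possible because each group holds 1 library. Read number limited the order of the 2 highest lines for GLB1, GUSB and MCOLN1.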

Other observations

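Transcripts for the forms of subunit a of the proton pump differed in their order over the lines. ATP6V0A1, the form widespread in neurons and other tissues, stood at 16.2 normalised CPM in HL60, 195 in K562, 82.1 in SUDHL4 and 65.3 in THP1. TCIRG1, the form known from osteoclasts and macrophages, stood at 103 in HL60, 13.8 in K562, 26.7 in SUDHL4 and 91.7 in THP1, so K562 was the highest line for one form and the lowest for the other. ATP6V0A2, the Golgi-associated form, was also highest in K562 (57.4) and lowest in THP1 (12.7). None of the 3 met the margin for a call. In the mixtures ATP6V0A1 ranged from 44.4 to 108 and TCIRG1 from 37.8 to 88.1.

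Among autophagy genes without a call, GABARAPL1, a relative of LC3, stood at 7.89 in HL60, 15.6 in K562, 0.569 in SUDHL4 and 1.73 in THP1. ULK1, the kinase that starts autophagy, stood at 16.3 in HL60, 9.87 in K562, 3.10 in SUDHL4 and 17.3 in THP1, lowest in SUDHL4 as GABARAPL1 was. ZKSCAN3, known as a repressor of lysosomal and autophagy genes, was highest in K562 (10.97) and ranged from 1.79 to 3.60 in the other lines. GNPTG, a subunit of the enzyme that builds the mannose 6-phosphate tag, was highest in THP1 (37.8), whereas NAGPA, the enzyme that uncovers the tag, was highest in HL60 (25.1).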
